A study of Mus musculus with 4 samples.

Results

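The windows described here are the most densely transcribed 10 kb stretches of single strands that lie outside long transcribed stretches in 3T3-L1 cells, a mouse preadipocyte line. They were chosen by their read number in the control cells. Reads of the 2 control libraries were pooled and counted by their 5′ end in windows of 10000 bp, each strand apart, on chromosomes 1 to 19. A window was a member if it held at least 300 pooled reads and did not belong to a run of 10 or more consecutive windows of the same strand with at least 20 pooled reads each. Of 211999 windows with a read, 57857 held at least 40 reads over the 4 libraries and were tested, and 1477 of these were members. Another 1104 windows reached 300 pooled reads inside such long runs and serve as the comparison set. The high control level of the members is therefore set by their choice.

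Cells given a control siRNA (siCTL) or one that targets GPS2 (siGPS2) were taken either without FCCP or after 3 hours of FCCP, which gives 4 groups of 1 library each. All groups are the same cell line, and the siGPS2 groups are a knockdown and not a deletion. The series names mitochondrial retrograde signalling through GPS2 as its subject, so the comparisons ask how nuclear transcription differs with uncoupled mitochondria, and whether it does so alike in cells with less GPS2. The preadipocyte identity and the knockdown were not checked here, because genes were not assigned: the reads are placed on the mouse build mm8, and the annotation at hand is of another build. Windows are named by their mm8 position, and no gene, exon or sequence is given for them.

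GRO-seq lets RNA polymerases that are already engaged on DNA extend their RNA in isolated nuclei with a labelled nucleotide. Its reads show where, and on which strand, polymerases were at work, largely apart from how stable the RNA is. Polymerases tend to gather just after a start site, and many start sites also send polymerases off on the opposite strand. A short run of dense windows is what a compact, busy transcription unit looks like in such data, whereas a long gene fills many windows in a row. GPS2 is a subunit of the nuclear NCoR and SMRT corepressor complexes that also resides in mitochondria. FCCP carries protons across the inner mitochondrial membrane and so uncouples respiration from ATP synthesis.

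Each library held 4199999 reads, or 4200001 in siCTL with FCCP, and only reads with a mapping quality of 10 or more were counted. Those made up 81.9% and 82.3% of the siCTL libraries without and with FCCP, and 54.7% and 55.1% of the siGPS2 libraries. By their read names, siCTL without FCCP was sequenced in run 183, and the remaining 3 libraries shared lane 1 of run 189. FCCP in siCTL, and siGPS2 against siCTL without FCCP, therefore span both runs, and run and condition cannot be told apart there. The FCCP ratio in siGPS2, and the comparison of the siRNAs with FCCP, were measured within that lane. No condition has a replicate, and all intervals below cover counting error only. In bulk cells, fewer transcribing cells and less transcription per cell cannot be told apart.

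Many members were neighbours within short runs. They lay in 842 runs, of which 516 held a single member and 167 held 2, and the fullest run held 9. By length of the run, 40 members stood alone as a run of 1 window, and the others spread over runs of 2 to 9 windows, with 205 to 214 members in each of the runs of 3, 4 and 5 windows. The strands were used about equally, with 758 members on the plus and 719 on the minus strand. Per 10 Mb of chromosome up to its last read, chromosome 19 held 10.6 members, chromosome 11 held 10.02, chromosome 8 held 9.46 and chromosome 14 only 2.98. Of the windows tested on these chromosomes, 3.47%, 3.12%, 3.67% and 1.67% were members, and the highest such share was 3.82%, on chromosome 3.

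Most members sat close above the threshold. Pooled siCTL reads numbered 300 to under 500 in 990 members, 500 to under 1000 in 413 and 1000 or more in 74, and only 6 reached 2000. The median member held 205 reads in siCTL, 215 in siCTL with FCCP, 131 in siGPS2 and 128 in siGPS2 with FCCP. After scaling for library size these medians were 173.9, 175.8, 158.1 and 152 reads, lower in siGPS2 than in siCTL and nearly equal with and without FCCP. Just inside the threshold, at 300 pooled reads each, were 3 windows of the minus strand. In the same order of libraries, chr1:58350001-58360000 held 160, 140, 75 and 91 reads, chr10:116760001-116770000 held 142, 158, 73 and 75, and chr11:20200001-20210000 held 78, 222, 59 and 104. Just outside, at 299 and also on the minus strand, chr11:19970001-19980000 held 139, 160, 124 and 102 reads, chr11:75220001-75230000 held 107, 192, 123 and 125, and chr12:113100001-113110000 held 195, 104, 80 and 61. In siGPS2 without FCCP the former held 59 to 75 reads and the latter 80 to 124.

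**Figure D1:**
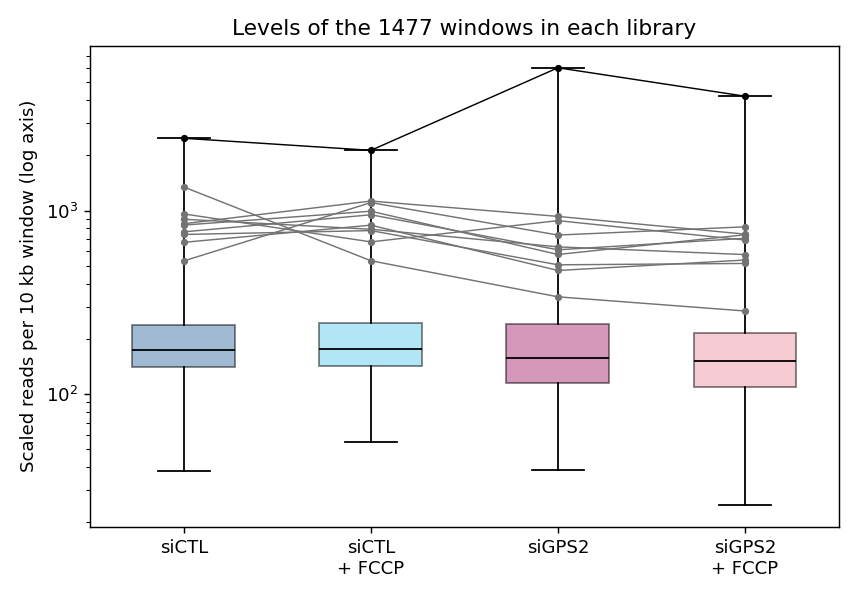
Scaled reads per window (log axis) in each of the 4 libraries for the 1477 windows. Boxes span the quartiles with the median as a line, whiskers reach the lowest and highest window, and joined points are the 10 windows with most pooled siCTL reads; the black line, the window with most, lies highest in siGPS2 without FCCP, at 6006 scaled reads.

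The window with most reads stood far above the rest. It is chr17:39450001-39460000 on the plus strand, a run of 1 window, with 2924 reads in siCTL, 2606 in siCTL with FCCP, 4978 in siGPS2 and 3540 in siGPS2 with FCCP. It was 2.42-fold higher in siGPS2 than in siCTL without FCCP (log2 1.28, 95% interval 1.21 to 1.34) and 1.97-fold higher with FCCP (0.98, 0.91 to 1.05). In every library, 98% of its reads lay between 1000 and 6800 bp from the 5′ edge of the window, and 20 of its 50 bins of 200 bp held no read. It is also the member whose reads are placed least surely among the most read ones: 62.5%, 59.5%, 52.0% and 51.5% of its reads in the 4 libraries had a mapping quality below 10 and were not counted, against medians of 10.2%, 9.92%, 13.8% and 13.6% over the members. With those reads counted too, its higher level in siGPS2 with FCCP fell below the 1.5-fold used for calls, at a log2 ratio of 0.57. Each read position also occurs only once in a library. In its densest 200 bp of pooled siCTL reads, reads began at 65%, 53%, 93.5% and 75.5% of positions in the 4 libraries. The medians over the members were 7.5%, 7%, 2.5% and 2.5%. Whether this limited the counts of the window was not tested.

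In the other members among the 10 with most reads, 6.49% to 26.6% of reads were below that quality. On chromosome 2, minus strand, 4 adjoining members from 77690001 to 77730000 were all among the 10 with most reads, and lay within a run of 9 windows. Counting upstream to downstream, chr2:77720001-77730000 held 792 and 1019 reads in siCTL without and with FCCP, and 391 and 453 in siGPS2. In the same order chr2:77710001-77720000 held 983, 1214, 478 and 622, chr2:77700001-77710000 held 903, 1161, 507 and 595, and chr2:77690001-77700000 held 874, 952, 420 and 434. Each of the 4 held more reads with FCCP than without under both siRNAs, by at most 1.28-fold after scaling, and none was called for FCCP.

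Others of the 10 differed more between libraries. Window chr15:76000001-76010000 on the minus strand held 1585 reads in siCTL against 652 in siCTL with FCCP, 281 in siGPS2 and 239 in siGPS2 with FCCP. Its siCTL level without FCCP stood above the other 3, at 2.52-fold over siCTL with FCCP (log2 -1.33, 95% interval -1.47 to -1.20) and 3.96-fold over siGPS2. That library gave most of the pooled reads by which the window was ranked, and it was sequenced in another run. Window chr1:151860001-151870000 on the plus strand, the first of a run of 2, went the other way in siCTL, from 627 to 1353 reads with FCCP (2.08-fold, 1.06, 0.92 to 1.20), whereas siGPS2 held 610 and 687 (1.11-fold, 0.15, -0.01 to 0.31). Window chr2:117810001-117820000 on the plus strand held 1000, 1379, 771 and 627 reads in the same order of libraries, higher with FCCP in siCTL by 1.33-fold and lower in siGPS2 by 1.25-fold, both short of a call. The others of the 10, chr6:51390001-51400000 on the minus strand with 1058, 968, 526 and 485 reads and chr2:13490001-13500000 on the plus strand with 1131, 826, 731 and 582, were lower with FCCP under both siRNAs by at most 1.42-fold and not called for it.

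With FCCP in siCTL the median member had a ratio near 1, and a minority was called higher or lower. A member was called at a scaled ratio of 1.5-fold or more, provided that equality lay outside the exact Clopper-Pearson interval (two-sided error 0.001). By this rule 160 members were higher with FCCP and 150 lower, 21% of the 1477, against 8.01% of all windows tested (3.78% higher and 4.23% lower). The balance of directions varied with the settings, from 70 higher and 35 lower at a fold of at least 2, and 177 and 130 when scaled by total reads, to 151 and 171 without the densest 200 bp of each window. The call is easier to reach where reads are many, and among windows in long runs with the same read minimum 19.7% were called. At a fold of at least 2, 105 of the 1477 members were called, against 5.31% of all windows tested. The median log2 ratio of the members was -0.0056, with quartiles at -0.30 and 0.28, against 0.07 in long runs and -0.05 over all windows tested.

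The 5 members with the highest FCCP ratio in siCTL reached 300 pooled reads through the FCCP library, so their low level without FCCP follows from how they were chosen. Window chr2:119040001-119050000 on the plus strand, a run of 1 window, held 45 reads in siCTL, 388 in siCTL with FCCP, 90 in siGPS2 and 269 in siGPS2 with FCCP. The siCTL ratio was 8.23-fold (log2 3.04, 95% interval 2.61 to 3.53) and the siGPS2 ratio 2.93-fold (1.55, 1.21 to 1.92), and both FCCP libraries stood above both libraries without it. Both FCCP libraries were also the higher ones in chr8:88410001-88420000 on the plus strand, with 48, 266, 72 and 179 reads (5.30-fold in siCTL and 2.44-fold in siGPS2). The same was seen in chr10:82910001-82920000 on the minus strand, with 54, 271, 59 and 148 reads (4.80-fold and 2.46-fold). Window chr17:14680001-14690000 on the minus strand held 57, 283, 71 and 128 reads (4.75-fold and 1.77-fold), and its siGPS2 call was lost when the interval was taken from the spread between bins. In chr6:7630001-7640000 on the minus strand, with 90, 423, 68 and 111 reads, siCTL with FCCP stood alone: the ratio was 4.51-fold in siCTL and 1.60-fold in siGPS2, which was not called by the exact interval but was called higher with the interval from bins.

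The members that were lowest with FCCP were called lower under both siRNAs in 4 of 5 cases. In all 5, most pooled reads came from siCTL without FCCP, so a high level there follows in part from how they were chosen. That library was also sequenced in another run than the remaining libraries. Window chr6:83010001-83020000 on the plus strand held 240 reads in siCTL, 67 in siCTL with FCCP, 154 in siGPS2 and 70 in siGPS2 with FCCP, 3.70-fold lower with FCCP in siCTL (log2 -1.89, 95% interval -2.31 to -1.50) and 2.23-fold lower in siGPS2 (-1.16, -1.59 to -0.74). On chromosome 11, minus strand, 2 adjoining windows fell in this group. Window chr11:120630001-120640000 held 363, 114, 46 and 21 reads (3.29-fold and 2.20-fold lower, the latter not called), and chr11:120620001-120630000 just downstream held 422, 123, 157 and 102 (3.55-fold and 1.56-fold lower). Both had their highest level in siCTL without FCCP, above all 3 other libraries. Window chr4:106080001-106090000 on the plus strand held 235, 79, 106 and 46 reads (3.07-fold and 2.33-fold lower), and chr7:144740001-144750000 on the minus strand held 603, 216, 307 and 169 (2.89-fold and 1.84-fold lower). In chr11:120620001-120630000 and chr4:106080001-106090000 the siGPS2 call was lost when the densest 200 bp of the window was left out.

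FCCP in siGPS2, measured within 1 lane, gave fewer calls, and their balance depended on the fold asked for. Of the members, 40 were higher and 74 lower with FCCP, 7.72%, against 1.9% of all windows tested (1.1% higher and 0.797% lower) and 4.26% of the windows in long runs. At a fold of at least 2 the split turned around, to 12 higher and 6 lower. These 18 of the 1477 members compare with 1.2% of all windows tested called at that fold. The median log2 ratio was -0.10, and 552 of the 1477 members (37.4%) lay above 0, against -0.02 and 48.7% over all windows tested. Among the 5 highest, 3 have been given above. The others were chr14:54500001-54510000 on the plus strand, with 69, 269, 93 and 276 reads, and chr11:50050001-50060000 on the minus strand, with 102, 218, 63 and 160. In both, the FCCP libraries stood above those without FCCP; the ratios were 3.74-fold in siCTL and 2.91-fold in siGPS2 for the former, and 2.06-fold and 2.49-fold for the latter.

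Of the 5 lowest in siGPS2, 3 had not been among the lowest in siCTL. Window chr11:81850001-81860000 on the plus strand held 263 and 100 reads in siCTL without and with FCCP, and 198 and 86 in siGPS2, 2.72-fold lower with FCCP in siCTL and 2.33-fold lower in siGPS2 (log2 -1.22, 95% interval -1.61 to -0.85). Window chr1:173330001-173340000 on the minus strand held 233, 106, 250 and 121 (2.27-fold and 2.10-fold lower). Window chr9:64990001-65000000 on the minus strand held 267, 148, 246 and 121 (1.87-fold and 2.06-fold lower). All 3 were lower in both FCCP libraries than in either library without it, and the latter 2 were runs of 1 window in which 26.0% to 42.5% of the reads had a mapping quality below 10.

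Members called for FCCP in siCTL and in siGPS2 alike shared 1 direction. There were 35 such members that were higher (2.37%, against 0.66% of all windows tested) and 40 that were lower (2.71%, against 0.358%). In long runs, with the same read minimum, these shares were 1.27% and 1.72%. No member was called in opposite directions. The 35 make up 21.9% of the list that was higher in siCTL and 87.5% of the list that was higher in siGPS2. The 40 make up 26.7% of the lower list in siCTL and 54.1% of that in siGPS2. Of the 160 members called higher in siCTL, 143 (89.4%) had a ratio above 0 in siGPS2, and the median log2 ratios were 0.92 (siCTL) and 0.39 (siGPS2). Of the 150 called lower, 144 (96%) were also below 0 in siGPS2, with medians of -0.80 and -0.48. A list chosen by its siCTL ratio leans towards large siCTL values. The lists chosen in siGPS2 had medians of 0.80 in siGPS2 and 1.26 in siCTL for the 40 higher members, and -0.73 and -0.68 for the 74 lower ones.

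**Figure D2:**
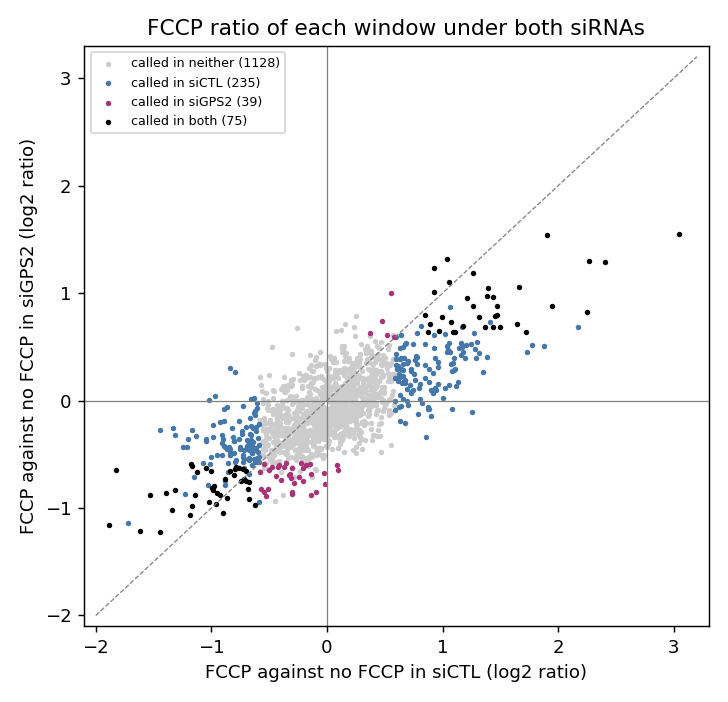
Log2 ratio of FCCP against no FCCP for each of the 1477 windows, in siCTL (horizontal) and siGPS2 (vertical), coloured by where the window was called; the dashed line marks equal ratios. The 75 windows called in both lie in the upper right and lower left quadrants, and the window with the highest siCTL ratio, 3.04, has a siGPS2 ratio of 1.55.

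Across the 1477 members, Pearson's r between the FCCP log2 ratios in siCTL and siGPS2 was 0.74 and Spearman's rho 0.69. In long runs these were 0.63 and 0.58. This is a description across windows, many of which are neighbours in a run and all of which come from the same 4 libraries. Neighbours also moved together in direction: 62 runs held 2 or more members called for FCCP in siCTL, and in none of them were members called in opposite directions.

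Runs in which several members were called under both siRNAs are given here by their summed reads. On chromosome 11, plus strand, 4 adjoining members from 83290001 to 83330000 held together 681 reads in siCTL, 1746 in siCTL with FCCP, 498 in siGPS2 and 929 in siGPS2 with FCCP, and their log2 ratios spanned 0.93 to 1.47 in siCTL and 0.78 to 1.01 in siGPS2. Higher pairs of adjoining members lay on chromosome 18, minus strand, 42340001 to 42360000, with 212, 518, 130 and 251 reads, and on chromosome 6, plus strand, 54970001 to 54990000, with 250, 695, 205 and 354. Another lay on chromosome 8, plus strand, 28730001 to 28750000, with 243, 692, 189 and 358 reads. With intervals from bins, the chromosome 18 member that ends at 42360000 and the chromosome 8 member that ends at 28750000 were no longer called in both siRNAs. On chromosome 10, minus strand, the 2 outer windows between 120990001 and 121030000 were members, with 165, 451, 103 and 214 reads together. Every member called in these 5 runs was higher with FCCP in both siRNAs, by a log2 ratio of at least 0.92 in siCTL and 0.68 in siGPS2. The runs with 2 members called lower in both lay on chromosome 15, minus strand, the outer 2 windows between 75990001 and 76020000, with 1007, 522, 500 and 330 reads, and on chromosome 17, minus strand, the outer 2 windows between 15500001 and 15530000, with 562, 277, 442 and 234. The former pair flanks chr15:76000001-76010000, given above, which was lower by 1.19-fold in siGPS2 and not called there.

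The FCCP responses of the 2 siRNAs differed in size at some members. The difference of the log2 ratios, siGPS2 minus siCTL, was called above 0 at 15 members and below 0 at 66, 5.48% together, against 0.582% of all windows tested (0.176% above and 0.406% below) and 3.89% in long runs, by a Wald interval at a two-sided error of 0.001 and a difference of at least 1.5-fold. In 75 of these 81 members the siCTL ratio was the larger in size, and in 51 both ratios had the same sign. Most of the differences below 0, 51 of 66, were members called higher with FCCP in siCTL, and 13 of the 15 above 0 were members called lower there. The siCTL ratio enters both the choice of these lists and the difference, and it spans both sequencing runs. With intervals from bins, 10 of the 15 members above 0 and 49 of the 66 below 0 were still called.

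FCCP was also fitted over both siRNAs together with limma-voom, where the interaction supplies the only residual degree of freedom, 1. The prior degrees of freedom were infinite, so SEs and p-values came from the error trend over all windows. A window's own difference between the siRNAs did not enter them, and they do not cover variation between replicates. At a Benjamini-Hochberg adjusted p under 0.05, 141 members were higher and 195 lower with FCCP, 22.7%, against 10.1% of all windows tested (4.64% higher and 5.46% lower) and 18.7% in long runs. These calls depend on the minimum of 40 reads: with all windows of 1 or more reads in the fit, 0 members passed the limma adjusted threshold, and 665 had an unadjusted p under 0.05 against 575. Window chr2:119040001-119050000 had a fitted log2 change of 2.26 ± 0.18 (SE, limma adjusted p = 4.5e-31). It became a member through its siCTL reads with FCCP. The fit joins its ratios of 3.04 in siCTL and 1.55 in siGPS2, whose difference was itself called. Window chr6:83010001-83020000 had a change of -1.54 ± 0.18 (limma adjusted p = 1.61e-13). Both windows were picked for their siCTL ratios, which enter the fit, so these p-values are a description only. Window chr1:151860001-151870000, called in siCTL and not in siGPS2, had 0.63 ± 0.13 (limma adjusted p = 6.47e-05). Windows chr17:39450001-39460000 and chr2:13490001-13500000, short of a 1.5-fold ratio in either siRNA, passed in this fit as lower, at -0.37 ± 0.10 (limma adjusted p = 0.00473) and -0.43 ± 0.13 (limma adjusted p = 0.0112).

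The siGPS2 libraries held fewer scaled reads in most members. As the members were chosen for many siCTL reads, the choice itself leans these ratios downward, and the following is a description. Without FCCP, 125 members were called higher and 313 lower in siGPS2 (29.7%, against 12.9% of all windows tested, 5.12% higher and 7.8% lower), with a median log2 ratio of -0.18. With FCCP, 54 were higher and 353 lower (27.6%, against 10.4%, 4.93% higher and 5.47% lower), with a median of -0.29. The windows in long runs, chosen by the same read minimum, were called in 32.2% and 29.7%, with medians of -0.19 and -0.28. Over all windows tested the medians were -0.15 without FCCP and -0.09 with FCCP. Ratios above 0 were found in 37.4% and 27.6% of the members, against 42.6% and 45.2% of all windows tested. In both FCCP states 46 members were higher and 204 lower, against 2.55% and 2.42% of all windows tested, and none was called in opposite directions. The 46 make up 36.8% of the list without FCCP and 85.2% of that with FCCP, and the 204 make up 65.2% and 57.8%.

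The strongest differences between the siRNAs were of both signs. Window chr1:151870001-151880000 on the plus strand, just downstream of chr1:151860001-151870000 and the last of that run, held 93 reads in siCTL, 231 in siCTL with FCCP, 343 in siGPS2 and 323 in siGPS2 with FCCP. It was 5.22-fold higher in siGPS2 without FCCP and 2.03-fold higher with FCCP, while the first window of the run differed by 1.38-fold and 1.36-fold, in opposite directions. Windows chr13:28950001-28960000, with 187, 227, 467 and 344 reads, and chr2:113540001-113550000, with 163, 348, 373 and 518, both on the minus strand and last in their run, were 3.55-fold and 3.25-fold higher without FCCP. With FCCP the highest were chr4:12030001-12040000 and chr8:110050001-110060000 on the plus strand, with 149, 162, 218 and 269 reads and with 221, 146, 315 and 238, and chr3:88560001-88570000 on the minus strand, with 456, 257, 684 and 418. Those 3 were 2.36-fold to 2.41-fold higher in siGPS2 with FCCP. Window chr4:12030001-12040000 lost both its siGPS2 calls when only reads of mapping quality 42 were counted, and with intervals from bins chr13:28950001-28960000 lost its call with FCCP and chr8:110050001-110060000 and chr3:88560001-88570000 theirs without FCCP.

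The lowest in siGPS2 was chr11:120630001-120640000, given above, 5.50-fold lower without FCCP and 3.67-fold with FCCP. Window chr17:24300001-24310000 on the plus strand held 284, 170, 44 and 54 reads (4.50-fold and 2.15-fold lower), and chr7:3740001-3750000 on the plus strand held 205, 164, 33 and 39 (4.31-fold and 2.87-fold lower). With FCCP, chr10:86130001-86140000 and chr15:98670001-98680000 on the minus strand, with 207, 157, 57 and 30 reads and with 254, 182, 47 and 37, were 3.56-fold and 3.35-fold lower. In these 5 windows both siGPS2 libraries lay below both siCTL libraries.

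These siRNA differences rest on libraries whose reads are spread unevenly. Of a member's reads, the densest 200 bp held a median of 7.24% in siCTL, 6.43% in siCTL with FCCP, 19.3% in siGPS2 and 17.1% in siGPS2 with FCCP. The share was higher in pooled siGPS2 than in pooled siCTL reads in 1448 of 1477 members. It rises by itself where reads are few, so each library was also drawn down to 60 reads per window in the 1359 members that allowed it: the medians were then 10%, 8.33%, 20% and 18.3%, and 1265 members still had the higher share in siGPS2 without FCCP. The densest bin was the same in both siRNAs in 210 members (14.2%, and 9.96% in long runs). The agreement between libraries of the same siRNA is not given, so this value has no baseline. Reads of siGPS2 began at a position where the other siGPS2 library also had a read in 22.9% of cases, against 10.3% between the siCTL libraries. The median SE of the log2 ratio was 0.35 from the spread between bins and 0.16 from counts for siGPS2 against siCTL without FCCP, and 0.31 and 0.16 with FCCP. With intervals from bins, 164 members (16 higher and 148 lower) and 190 members (9 higher and 181 lower) were called in place of 438 and 407. Of all windows tested, 4.7% and 4% were called with these intervals, in place of 12.9% and 10.4%. For FCCP the 2 errors were alike, at 0.15 and 0.15 in siCTL and 0.18 and 0.18 in siGPS2. What part the unevenness has in the siRNA differences was not tested.

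**Figure D3:**
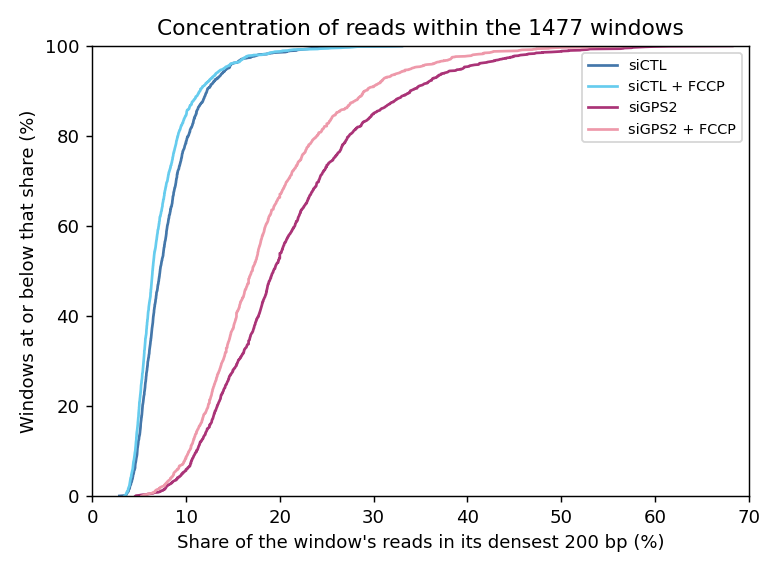
Cumulative share of the 1477 windows (vertical, %) by the share of a window's reads in its densest 200 bp (horizontal, %), 1 line per library. The siGPS2 lines lie to the right, with medians of 19.3% and 17.1% against 7.24% and 6.43% in the siCTL libraries.

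**Figure D4:**
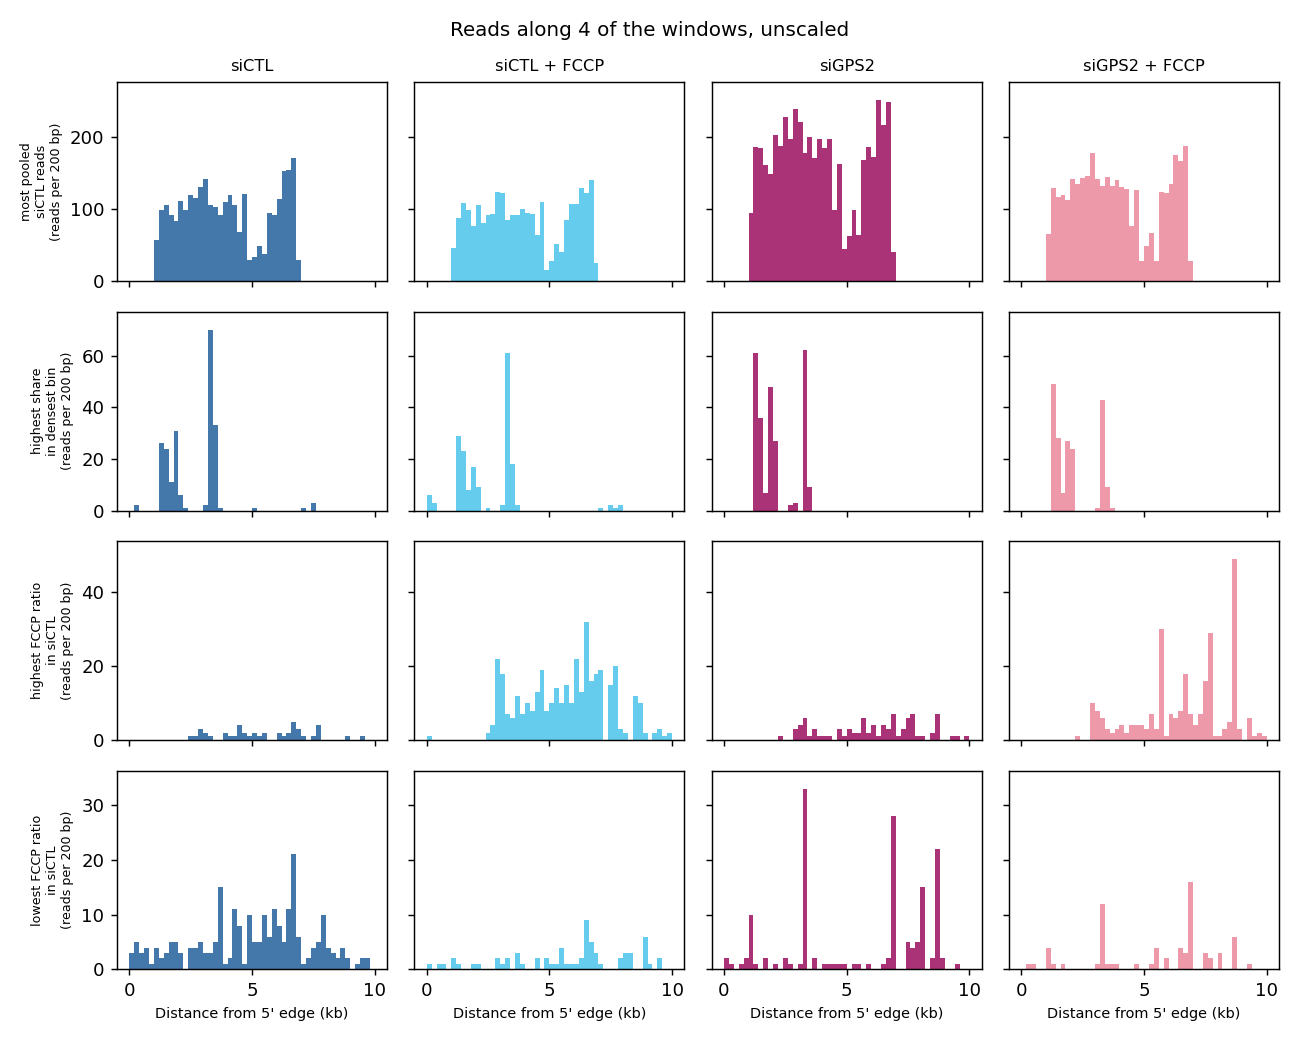
Unscaled reads per 200 bp along 4 of the windows (rows) in the 4 libraries (columns), by distance from the 5′ edge of the window in the direction of transcription. Rows from the top are chr17:39450001-39460000, chr19:12070001-12080000, chr2:119040001-119050000 and chr6:83010001-83020000. The uppermost keeps its outline in all libraries. The next keeps its blocks but not their heights, with 26 and 70 reads at 1300 and 3300 bp in siCTL and 61 and 62 in siGPS2, without FCCP. Isolated tall bins stand in chr2:119040001-119050000 in siGPS2 with FCCP and in chr6:83010001-83020000 in both siGPS2 libraries.

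Within the members, reads ranged from evenly spread to focal. Most focal in pooled siCTL reads was chr19:12070001-12080000 on the minus strand, a run of 1 window with 212, 185, 255 and 189 reads, of which the densest 200 bp held 33.0%, 33.0%, 24.3% and 25.9%. Its reads formed the same few short blocks in all 4 libraries, as the plot of reads along 4 windows shows, but the blocks differed in relative height. The densest bin lay 1200 to 1400 bp from the 5′ edge in siGPS2 with FCCP, and 3200 to 3400 bp from it in the other libraries. Next were chr13:23430001-23440000 on the minus strand with 224, 185, 147 and 92 reads and chr6:17250001-17260000 on the plus strand with 166, 149, 90 and 84, at 28.4% and 27.3% of pooled siCTL reads. Most even were chr15:76000001-76010000 at 2.91%, chr8:82550001-82560000 on the plus strand with 336, 340, 170 and 141 reads at 3.25%, and chr2:125730001-125740000 on the plus strand with 541, 451, 238 and 272 reads at 3.33%.

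The FCCP ratio was lower in the more focal members. The members were split into 4 groups of 369 or 370 by the share of pooled siCTL reads in the densest 200 bp. In the most even group, in which the densest 200 bp held 2.91% to 4.91% of pooled siCTL reads, the median log2 ratio with FCCP was 0.17 in siCTL and 0.01 in siGPS2. Over the next groups it was 0.06 and -0.04, then -0.05 and -0.15, and in the most focal group, at 8.32% to 33%, it was -0.23 and -0.27. Calls moved likewise: in siCTL 60 members were higher and 16 lower in the most even group, against 21 and 62 in the most focal one, and in siGPS2 15 and 6 against 3 and 41. The groups were formed on siCTL reads, so the siGPS2 values come from libraries that did not form them. Focal members differed in other ways too. The share with at least 20 opposite-strand reads rose from 14.9% to 37.9% from the most even to the most focal group, and the median share of siCTL reads with a mapping quality below 10 rose from 9.27% to 12.0% without FCCP. The part of these in the FCCP ratio was not tested.

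**Figure D5:**
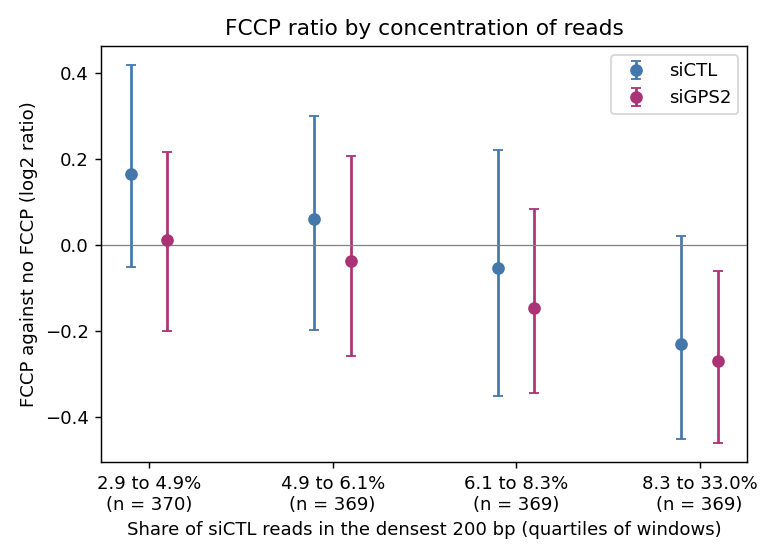
Log2 ratio of FCCP against no FCCP in siCTL and siGPS2 by group of the windows, from evenly spread to focal siCTL reads; points are medians over windows and bars span the quartiles of windows. From the most even to the most focal group, medians go down from 0.17 to -0.23 (siCTL) and from 0.01 to -0.27 (siGPS2), while the bars of neighbouring groups overlap.

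Summed over all members, the densest bins, taken from pooled siCTL reads, held 27089 reads in siCTL and 24826 with FCCP, a scaled log2 ratio of -0.18, and the rest held 340172 and 355960, a ratio of 0.01. In siGPS2 the same bins held 20606 and 16529 reads (-0.34) and the rest 221049 and 209870 (-0.10). In the most even group the densest bins and the rest were close, at 0.16 and 0.17 in siCTL and -0.06 and 0.01 in siGPS2. In the most focal group the rest of the window was also lower with FCCP, by log2 -0.17 in siCTL and -0.24 in siGPS2. The share of reads in the densest bin of each library was lower with FCCP in 909 members in siCTL and in 1053 in siGPS2. At 60 reads per library it was lower in 586 and higher in 453 of 1359 members in siCTL, and lower in 821 and higher in 366 in siGPS2.

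The position of a member in its run went with transcription on the other strand. At least 20 pooled siCTL reads on the opposite strand were found at 381 members (25.8%), against 145 of the 1104 windows in long runs (13.1%), and 523 members (35.4%) had none. Of the 236 members that were the first window of their run, 149 (63.1%) had such reads, with a median of 30.5 opposite-strand reads. Among 1043 inner members it was 16.5% with a median of 1 read, among 158 last ones 23.4%, and among the 40 that stood alone 57.5%. In long runs 59.5% of first windows, but only 11.4% of inner windows, had them. Members on both strands of the same window were rare, with 2 pairs in all.

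By position, the FCCP ratio was lowest in last and single members. Its median in siCTL was -0.02 in first, 0.03 in inner, -0.11 in last and -0.12 in single members, and in siGPS2 it was -0.14, -0.08, -0.24 and -0.30. First, inner and last windows in long runs had medians of -0.09, 0.08 and -0.11 in siCTL, and -0.01, -0.05 and -0.17 in siGPS2. Last and single members were also more focal. Their densest 200 bp held medians of 8.98% and 7.74% of pooled siCTL reads, against 7.08% in first and 5.73% in inner members. The part of this in the FCCP ratio was not tested. Between the siRNAs without FCCP, first members were lower in siGPS2, with a median log2 ratio of -0.30, inner ones at -0.19, and last ones at 0.04. Of the 158 last members, 24 were called higher and 15 lower, and of the 236 first members 13 and 65. Over all windows tested the shares were 5.12% higher and 7.8% lower. With intervals from bins, 16 of the 125 higher and 147 of the 313 lower calls over all members were kept. The comparison also spans both sequencing runs. Medians in long runs showed the same order, at -0.50 in their 37 first windows, -0.19 in inner and 0.30 in their 24 last windows with 300 or more pooled reads. With FCCP the medians of the members were -0.38 in first, -0.30 in inner and -0.13 in last windows. These are medians over windows of the same libraries and carry no test.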

How the data were processed

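GRO-seq reads of 4 libraries were deposited as aligned positions, 1 line per read, with a score in column 5. Its values, 0 to 42 as deposited, were taken as mapping quality; nothing in the sources used here names it. The submitters' processing notes list Bowtie, HOMER and build mm8, without versions; further steps: not given in the sources used here. No library repeats a read position (start, end and strand), and each was deposited with 4200000 or 4200001 lines, so original depths are not known. 1 malformed line was removed in each of 3 libraries. The members, lists and alternatives were chosen with earlier results of these data known.

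Reads of quality 10 or more were counted per strand in 10000 bp windows. Scale factors (1.18 and 1.22 for siCTL without and with FCCP, 0.829 and 0.842 for siGPS2) were medians of ratios over the 28460 windows in which each library had 20 reads or more. Ratios have 0.5 added to each count. Calls need a fold of 1.5 and an exact Clopper-Pearson interval at an error of 0.001; printed intervals are 95%. The bin interval uses the spread between 50 bins of 200 bp. limma 3.58.1 (voom, R 4.3.3) fitted siRNA and FCCP over all 57857 windows tested, with infinite prior degrees of freedom (errors come from the mean-variance trend alone). The rules were tested on simulated counts. Named windows are the 10 with most pooled siCTL reads, up to 5 called each way per FCCP comparison, up to 3 each way for other comparisons, the 3 most focal and most even, and 3 on each side of the threshold. The runs with several members called under both siRNAs were chosen after their values were seen. Draws to 60 reads used a fixed seed.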

Additional observations from a re-analysis of the deposited data

Results flagged for a closer look

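At 81 members the FCCP response differed between the siRNAs beyond counting error, and the 3 largest differences in each direction are given here as siGPS2 minus siCTL on the log2 scale. No replicate bears on them, and siCTL without FCCP was sequenced in another run than the other 3 libraries.

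The difference lay above 0 at chr11:120620001-120630000 on the minus strand, at 1.19 (95% interval 0.72 to 1.65), where siCTL was 3.55-fold and siGPS2 1.56-fold lower with FCCP. In siGPS2, 40.8% and 38.2% of this window's reads lay in its densest 200 bp, against 6.16% and 6.50% in siCTL. At chr2:120990001-121000000 on the plus strand it was 1.17 (0.63 to 1.72), with 227 and 86 reads in siCTL and 106 and 89 in siGPS2. At chr11:75310001-75320000 on the plus strand it was 1.14 (0.56 to 1.72), with 291 and 169 reads in siCTL and 54 and 68 in siGPS2, the only 1 of the 6 whose FCCP ratios had opposite signs.

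The difference lay below 0 at chr6:7630001-7640000 on the minus strand, at -1.49 (-2.04 to -0.95), at chr2:119040001-119050000 on the plus strand, at -1.49 (-2.05 to -0.93), and at chr17:14680001-14690000 on the minus strand, at -1.43 (-2.01 to -0.84). All 3 were higher with FCCP under both siRNAs and higher by more in siCTL, from 57 to 283 reads against 71 to 128 in siGPS2 at chr17:14680001-14690000.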

How the results depend on the processing

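No call of a named window changed direction under any alternative run, and the number of their calls that were lost was 3 when all reads were counted, 13 with reads of quality 42 only, 18 with intervals from bins, 32 at a fold of at least 2, 27 with a minimum of 1 read, which are the calls of the limma fit, 11 without the densest 200 bp and 6 with scaling by total reads. The members' median log2 ratio for FCCP in siCTL, -0.0056, lay between -0.04 and 0.04; the other medians kept their sign. A fold of at least 2 in place of 1.5 left 105 members called for FCCP in siCTL (70 higher, 35 lower), 18 in siGPS2 (12 and 6, in place of 40 and 74), 152 and 119 for siGPS2 against siCTL without and with FCCP, and 20 for the difference of the responses. With intervals from bins, siGPS2 against siCTL gave 164 members without FCCP (16 higher, 148 lower) and 190 with FCCP (9 and 181), while FCCP gave 304 in siCTL, 112 in siGPS2 and 73 for the difference. Of the 160 and 150 members called for FCCP in siCTL, 156 and 148 were still called with intervals from bins. Of the 40 and 74 called in siGPS2, 33 and 64 were. Of the 15 and 66 differences called, 10 and 49 were, and 11 and 40 with reads of quality 42 only. With all windows of 1 or more reads in the limma fit, 0 members passed the adjusted threshold, with prior degrees of freedom of 2.43 in place of infinite; 665 had an unadjusted p under 0.05 (575 in the fit used), and the exact interval still called 310 and 114. Bins of 500 bp put the median densest share of pooled siCTL reads at 10.9% in place of 6.13%. Scaling by total reads moved the higher share of siGPS2 calls without FCCP from 28.5% to 38.5%; leaving out the densest 200 bp, added after seeing the data, moved that with FCCP from 13.3% to 23.3%. Counting all reads moved the median siGPS2 ratio over all windows tested by over 0.1, to 0.09 (from -0.15) without FCCP and 0.13 (from -0.09) with it; in the members it then was -0.21 and -0.34. With a minimum of 1 read the median over all windows tested was 0.51 and 0.54, while the members' calls by the exact interval did not change. No paired analysis was possible because the labels number no replicates and each group is 1 library; FCCP is compared within each siRNA in the limma fit itself. The lowest count of a member is 21 reads, and error beyond counting is not known without replicates; for siGPS2 against siCTL the errors from bins, 0.35 and 0.31, exceed the 0.16 from counts.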
